A study of Drosophila melanogaster and Drosophila simulans and Drosophila yakuba with 12 samples.

Results

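The mir-9 family of Drosophila and the microRNA cluster that carries most of it were followed in whole animals of 3 fruit fly species at the onset of metamorphosis. The members were chosen by name: the hairpins mir-9a, mir-9b, mir-9c, mir-79 and mir-306, with both arms of each. They are 5 of the 176 hairpins to which D. melanogaster reads were aligned. The D. yakuba set of 80 hairpins holds all 5 members, and the D. simulans set of 136 holds mir-9a alone. For D. simulans the clustered members were therefore counted on the D. melanogaster hairpins.

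Small RNA was sequenced in 12 libraries from 10 RNA samples of whole bodies. D. simulans (strain 14021-0251.167) and D. yakuba (strain 14021-0261.00) each gave 1 RNA of male prepupae, made into 2 technical libraries, and 1 RNA of male larvae. D. melanogaster (strain Oregon-R) gave 2 RNA samples of male prepupae, 2 of male larvae, 1 of female prepupae and 1 of female larvae. The labels name no mutation or treatment, beyond a dye in the food of all larvae that shows their age. Prepupae were taken within 1 h of puparium formation, when the larval skin hardens into the pupal case, and larvae 18 h before it. Each library had a 4-nt index next to the insert and was prepared in a pool of 4 libraries, numbered 1, 3 or 4 in the sample names.

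MicroRNAs are cut from hairpin precursors as a 5p arm and a 3p arm, and usually one arm is kept. Bases 2 to 8 of the kept arm, the seed, pair with messenger RNAs and largely set which are repressed. In D. melanogaster, miR-9a limits the number of sense organ precursors through senseless and shapes the wing through dLMO. miR-306 and miR-79 of the fly act in imaginal discs, where they raise JNK signalling through RNF146 and so promote the removal of tumorous cells.

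The main arms fall into 3 seed classes, shown here because the members differ by seed as well as by locus. Sequences run 5′ to 3′ as in the deposited alignments, and capitals mark the seed. The 5 arms that make up nearly all member reads come first, followed by the 3p arm of mir-9a and by miR-275-3p, a microRNA outside the family.
miR-9a-5p: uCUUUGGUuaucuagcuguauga
miR-9c-5p: uCUUUGGUauucuagcuguaga
miR-9b-5p: uCUUUGGUgauuuuagcuguaug
miR-79-3p: uAAAGCUAgauuaccaaagcau
miR-306-5p: uCAGGUACuuagugacucucaa
miR-9a-3p: aUAAAGCUagcuuaccgaaguua
miR-275-3p: uCAGGUACcugaaguagcgcgcg

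The 5p arms of mir-9a, mir-9b and mir-9c share their first 8 bases and therefore the seed. The miR-9c-5p sequence is 3 edits away from miR-9a-5p, and miR-9b-5p is 4 edits away. miR-306-5p shares its seed with miR-275-3p and with none of the other members. At its named start miR-79-3p shares its seed with no other named arm of the D. melanogaster set. A miR-79-3p read that starts 1 base earlier, aUAAAGCUagauuaccaaagcau, carries the seed of miR-9a-3p and of miR-4-3p. That earlier start made up 38 of 486 miR-79-3p reads, against 441 at the named start.

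The lone mir-9a lies at chr3L:19565131-19565208 on the plus strand of the BDGP6 assembly, inside an exon of the long noncoding RNA gene lncRNA:CR45916. The other members lie together on the plus strand of chromosome 2L in the order mir-9c, mir-306, mir-79 and mir-9b. Their span, chr2L:16697924-16698834, measures 911 bases and sits in introns of all 5 annotated transcripts of grp, the checkpoint kinase gene grapes. The hairpins mir-306 and mir-79 are 65 bases apart, and mir-79 and mir-9b are 93 bases apart. The longest gap, 388 bases, separates mir-9c from mir-306.

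The hairpins of mir-9a and mir-79 are shown because they were read mostly from opposite sides. In both lines capitals mark the arms for which reads were seen.
mir-9a: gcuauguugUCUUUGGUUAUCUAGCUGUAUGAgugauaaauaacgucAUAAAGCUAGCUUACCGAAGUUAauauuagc
mir-79: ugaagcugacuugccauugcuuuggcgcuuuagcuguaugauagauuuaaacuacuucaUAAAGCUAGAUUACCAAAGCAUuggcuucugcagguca

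Over all libraries mir-9a gave 1260 reads of its 5p arm and 23 of its 3p arm, so that the 5p arm made up 98.2% (95% exact binomial interval 97.3 to 98.9). mir-79 gave 486 reads of the 3p arm and none of the 5p arm, which allows a 5p share of up to 0.756%. mir-9c was 93.9% 5p (91.6 to 95.7), mir-306 96.3% (91.6 to 98.8) and mir-9b 99.0% (97.1 to 99.8). The more frequent arm of each hairpin was the same in the 3 species, although mir-306 had 7 and mir-79 had 5 reads in D. yakuba. mir-79 is thus the single member read mostly from its 3p arm, and 9 of the 10 member arms had any read.

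The mature arms themselves were identical between species wherever a hairpin of the other species was given. The D. simulans mir-9a hairpin and the 2 copies of D. yakuba mir-9a matched the D. melanogaster hairpin at all 78 bases. The D. yakuba hairpins differed from the D. melanogaster ones by 1 edit in mir-9c, 2 in mir-306, 5 in mir-9b and 8 in mir-79, and every mature arm was intact. Counting the D. yakuba libraries on either set of hairpins gave the same reads in all 30 cells of member arms.

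Libraries were shallow. Reads on hairpins of the library's own species numbered between 1423, in a D. yakuba prepupa library, and 48209, in D. melanogaster female prepupae. A count of 0 allows a share of up to 0.00622% to 0.211%, taken as 3 counts of the total. Intervals and these limits cover counting error only, since PCR reads are not independent molecules. The muscle microRNAs miR-1 and miR-133 took between 0.978% and 47.4% of prepupal reads and between 5.66% and 37.0% of larval reads, so shares of any other microRNA are set against a total that varied widely. By species they took 14.2% to 23.7% in D. simulans, 9.49% to 47.4% in D. yakuba and 0.978% to 13.2% in D. melanogaster. The D. yakuba range overlapped both others, and its 2 ends were the technical libraries of 1 prepupal RNA. The nervous system microRNAs miR-124 and miR-1000 took at most 0.388% in prepupae and 0.530% in larvae, miR-281 of the gut and Malpighian tubules at most 2.17% in prepupae and 1.40% in larvae, and 14 testis-rich hairpins at most 0.111% in prepupae and 0.148% in larvae. Their part in the results below was not tested. In whole bodies, fewer cells that express a microRNA and less of it per cell cannot be told apart. Beyond separate RNA the labels do not say how replicates were raised, so every p-value rests on a spread that may be technical.

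The 5 main arms together were a small part of the microRNA of these animals. miR-9a-5p was the most read of them in 9 of the 12 libraries, and miR-79-3p in the other 3, which were the D. melanogaster libraries of male prepupae, male larvae and female larvae in pool 1. miR-9a-5p made up between 0.0847% and 1.56% of reads. In the library order of all arms it ranked between 11th and 49th, while miR-306-5p never came above 35th. That order covers the hairpin set of each species, and the sets differ in size, so ranks are not fully alike between species.

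miR-9a-5p, the sense organ regulator, had its highest shares in D. simulans, by a difference that did not pass the test. Its shares were 1.27% and 1.56% in the technical libraries of D. simulans prepupae and 1.44% in D. simulans larvae. They were 0.745% and 0.984% in D. yakuba prepupae and 0.965% in D. yakuba larvae. In D. melanogaster they were 0.489% and 0.676% in male prepupae and 0.322% and 1.02% in male larvae, and 0.591% in female prepupae and 0.0847%, or 4 reads, in female larvae. All 3 D. simulans libraries were above all 6 D. melanogaster libraries, while D. yakuba overlapped D. melanogaster. The totals are not fully alike, since each covers the hairpin set of its species, with the clustered reads added in D. simulans. The sets hold 136 hairpins for D. simulans, 80 for D. yakuba and 176 for D. melanogaster. Reads of hairpins absent from a set are not in its total, and their effect on these shares was not tested. Pool 1 holds 4 of the 6 D. melanogaster libraries and no other species, and in D. melanogaster males miR-9a-5p was lower in pool 1 than in pool 3 at both stages. Within pool 3 the interval of D. simulans prepupae (1.13% to 1.42%) lay above that of D. melanogaster prepupae (0.517% to 0.867%) and overlapped that of larvae (0.832% to 1.23%).

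In the fit over 8 male RNA samples, the log2 change of miR-9a-5p was 0.88 (SE 0.61) for D. simulans over D. melanogaster (edgeR quasi-likelihood test, adjusted p = 0.332), a comparison in which 6.82% of the 44 arms tested were called. The change was 0.76 (SE 0.62) for D. yakuba over D. melanogaster (adjusted p = 0.473), where 0% were called, 9 arms reached 0.05 before adjustment and DESeq2 made 4 calls. It was 0.12 (SE 0.72) for D. simulans over D. yakuba (adjusted p = 0.957), where 9.09% were called. The median change of all tested arms was −0.85 for D. simulans over D. melanogaster and −0.28 for D. yakuba over D. melanogaster, so miR-9a-5p lay above the median in both. Counted on the D. melanogaster hairpins, as the clustered arms were, it was at 1.19 (SE 0.77) for D. simulans and 0.62 (SE 0.79) for D. yakuba. None of these differences passed the threshold, an adjusted p of 0.05.

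**Figure D1:**
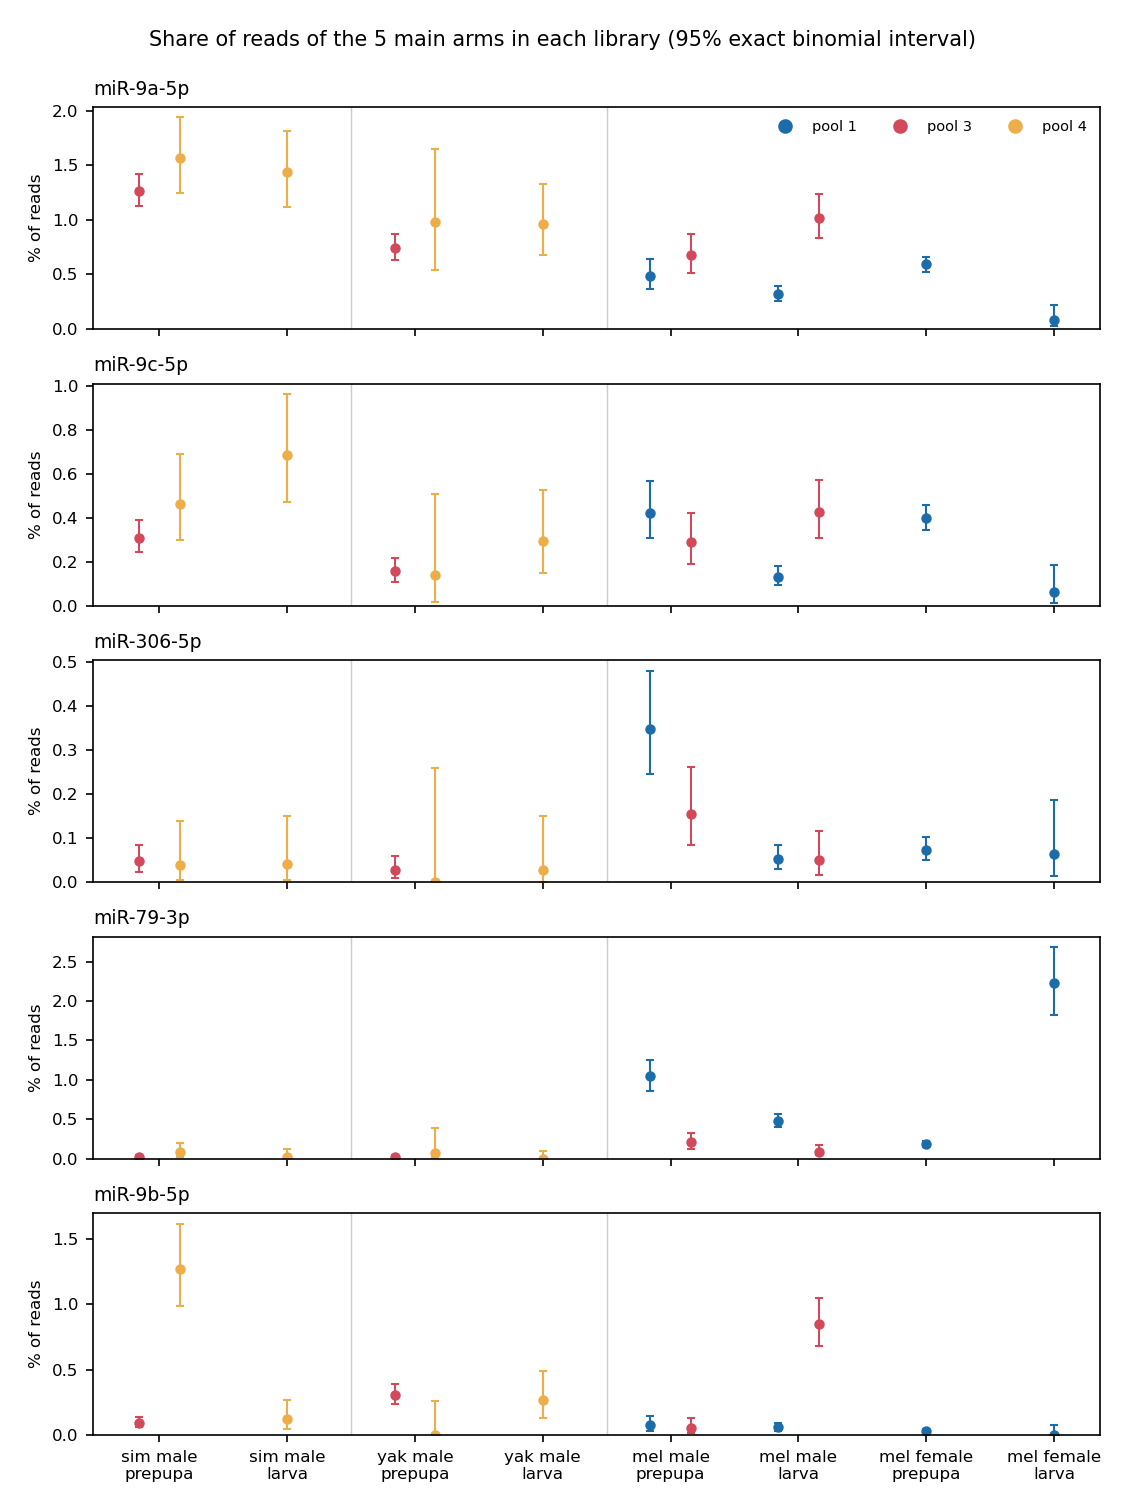
Share of the reads of each library (y axis, percent) for the 5 main arms, with 1 point per library in its group, bars for the 95% exact binomial interval and colours for the library pool. The miR-9a-5p points of D. simulans, 1.27% to 1.56%, lie above those of D. melanogaster, and the miR-79-3p points run from 0% in D. yakuba larvae to 2.22% in D. melanogaster female larvae.

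miR-9c-5p, the clustered arm with the most reads (523), followed miR-9a-5p at a lower level. It made up 0.309% and 0.463% in D. simulans prepupae and 0.687% in D. simulans larvae, and 0.156%, 0.141% and 0.295% in the 2 prepupal libraries and the larval library of D. yakuba. In D. melanogaster it made up 0.423% and 0.288% in male prepupae, 0.130% and 0.425% in male larvae, 0.396% in female prepupae and 0.0635% in female larvae. The ranges of the 3 species overlapped. Fitted on the D. melanogaster hairpins, the log2 change was 0.75 (SE 0.86, adjusted p = 0.661) for D. simulans and −0.37 (SE 0.89, adjusted p = 0.803) for D. yakuba, each over D. melanogaster, by the edgeR quasi-likelihood test. With reads of 20 nt or more it was 0.21 for D. simulans and −1.84 for D. yakuba. Scaling moved the D. yakuba value too, to −0.083 with RLE and −0.053 with the upper quartile, and no setting gave a call.

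miR-79-3p, from the member read mostly from its 3p arm, had the widest difference between species of the 5 arms, although it did not pass the edgeR test. It was rare in both other species, with 0.0212% and 0.0772% in D. simulans prepupae (5 and 4 reads) and 0.0208% in D. simulans larvae (1 read). D. yakuba had 0.0184% and 0.0703% in prepupae (4 and 1 reads) and no read in larvae, which allows up to 0.0804%. D. melanogaster had 1.04% and 0.211% in male prepupae, 0.480% and 0.0890% in male larvae, 0.180% in female prepupae and 2.22% in female larvae. The 6 libraries of D. simulans and D. yakuba all lay below the 6 of D. melanogaster.

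The fitted log2 change of miR-79-3p was −3.97 (SE 1.33) for D. simulans over D. melanogaster (edgeR quasi-likelihood test on the D. melanogaster hairpins, unadjusted p = 0.00759, adjusted p = 0.0941), where 1.61% of the 62 arms tested were called. It was −4.59 (SE 1.39) for D. yakuba over D. melanogaster (unadjusted p = 0.00385, adjusted p = 0.105), where 0% were called, 12 of 62 arms reached 0.05 before adjustment and DESeq2 made 5 calls. Neither passed the threshold. DESeq2 called both, with adjusted p-values of 0.0274 for D. simulans and 0.0099 for D. yakuba. edgeR called the D. simulans change without the second D. melanogaster male larva library (adjusted p = 0.0423) or the second D. simulans prepupa library (adjusted p = 0.0421), and the D. yakuba change without the second D. melanogaster male prepupa library (adjusted p = 0.0450). The log2 change of D. simulans over D. yakuba was 0.62 (SE 1.49, edgeR adjusted p = 0.861), in a comparison where 0% were called, 10 arms reached 0.05 before adjustment and DESeq2 made 1 call.

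The library pool moved with the miR-79-3p level. Within pool 3, the pool that holds all 3 species, the share was 0.0212% in D. simulans prepupae and 0.0184% in D. yakuba prepupae, against 0.211% in D. melanogaster male prepupae and 0.0890% in male larvae. The intervals of D. simulans prepupae (0.00688% to 0.0494%) and D. yakuba prepupae (0.00501% to 0.0471%) lay below that of D. melanogaster prepupae (0.127% to 0.329%). The D. melanogaster libraries of pool 1 held 0.180% to 2.22%. The pool 3 interval of D. melanogaster male larvae (0.0407% to 0.169%, 9 reads) overlapped those of D. simulans and D. yakuba prepupae. The D. melanogaster share was thus lower in pool 3 than in pool 1 at both stages of males, and the part of the pool in the species difference was not tested. The indexes of the 4 libraries of pool 3 all differ, so that index and sample cannot be told apart there.

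The D. simulans reads of miR-79-3p were counted on the D. melanogaster hairpin, and the effect of any differing base was not tested. For D. yakuba the species' own hairpin was used, and its mature arm is identical.

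miR-306-5p was the rarest of the 5 main arms, with 131 reads. It stood at 0.348% and 0.155% in D. melanogaster male prepupae, against 0.0514% and 0.0494% in male larvae. The prepupal values lay above the larval ones, while the exact intervals of the pool 3 pair, 0.0848% to 0.260% (14 reads) and 0.0161% to 0.115% (5 reads), overlapped. Female prepupae had 0.0726% and female larvae 0.0635%. In D. simulans the shares were 0.0466% and 0.0386% in prepupae and 0.0416% in larvae. In D. yakuba they were 0.0276% in one library of prepupae, no read in the other, which allows up to 0.211%, and 0.0268% in larvae. The higher prepupal share was seen in D. melanogaster males and was not detectable in the other groups at this depth.

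The log2 change of miR-306-5p between stages in D. melanogaster males was 2.47 (SE 1.44) and was not called (edgeR quasi-likelihood test, adjusted p = 0.295), in a comparison where 8.57% of 70 arms were called. With the pool as a replicate block it was 2.48 (SE 0.95, edgeR adjusted p = 0.0339) and was called, as 1 of 24 among the 70 arms. That fit adds the block to a mean for each group, which leaves little to estimate the spread from. Both male prepupa libraries carried the index TGAC and both male larva libraries ACTG, so in these samples index and stage cannot be told apart. The block leaves that as it is. Over males of 3 species the change was 1.29 (SE 1.01, adjusted p = 0.610), where 1.61% of 62 arms were called. Between species it was −1.42 (SE 1.28) for D. simulans and −2.05 (SE 1.35) for D. yakuba over D. melanogaster, with no call.

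miR-275-3p, which shares the miR-306-5p seed, was far more abundant, with 4358 reads and 1.27% to 5.22% of a library. miR-306-5p was at most 8.53% of the reads of the 2 arms together. That share was 8.53% and 7.45% in D. melanogaster male prepupae and 1.28% and 0.938% in male larvae. The log2 change of miR-275-3p itself between these stages was −0.49 (SE 1.26) by the edgeR quasi-likelihood test (adjusted p = 0.941).

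miR-9b-5p, the third arm with the miR-9 seed, varied most between libraries of the same kind. The 2 technical libraries of 1 D. simulans prepupal RNA held 0.0932% and 1.27%, a 13.7-fold difference whose intervals did not overlap. The 2 libraries of D. yakuba prepupae held 0.308% (interval 0.239% to 0.391%) and no read. For the second, 3 counts allow up to 0.211% and the exact interval up to 0.259%, so whether these libraries lie apart depends on the bound. The other main arms differed between technical libraries by 0.828-fold to 3.82-fold where both had reads, and none of their intervals lay apart.

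Other miR-9b-5p levels were 0.125% in D. simulans larvae and 0.268% in D. yakuba larvae. In D. melanogaster they were 0.0753% and 0.0554% in male prepupae, 0.0583% and 0.850% in male larvae and 0.0270% in female prepupae, with no read in female larvae, which allows up to 0.0635%. The 2 male larva samples of D. melanogaster thus lay on both sides of one of the male prepupa samples. The log2 change between stages in D. melanogaster males was −2.43 (SE 1.40, edgeR quasi-likelihood test, adjusted p = 0.295). It was −1.55 with the pool as a replicate block and −0.66 with reads of 20 nt or more, a setting chosen after seeing the data. Between species it was 0.37 (SE 1.27) for D. simulans and 0.80 (SE 1.24) for D. yakuba over D. melanogaster, and it was −0.60 without the second D. simulans and −0.74 without the first D. yakuba prepupa library.

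Read length separated the miR-9 arms by pool. Most miR-9b-5p reads were shorter than the named sequence: the form read most often, uCUUUGGUgauuuuagcu, is 18 nt long and made up 130 of 300 reads. The matching 18-nt forms of miR-9c-5p, uCUUUGGUauucuagcug, and of miR-9a-5p, uCUUUGGUuaucuagcug, had 101 of 523 and 121 of 1260 reads. All 3 forms keep the seed and lack bases at the 3′ end.

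Reads of 18 or 19 nt made up 74.4% of miR-9b-5p in pool 3 and 69.5% in pool 4, against 10.5% in pool 1. For miR-9c-5p they made up 52.8% and 48.6% in pools 3 and 4, against 5.78% in pool 1, and for miR-9a-5p 16.8% and 18.0%, against 0.690%. Summed over the libraries of a pool, the order of the 3 arms, miR-9b-5p above miR-9c-5p above miR-9a-5p, was the same in each pool. Single libraries departed from it. The second D. melanogaster male prepupa library, of pool 3, had 0 of 5 such reads for miR-9b-5p, 12 of 26 for miR-9c-5p and 3 of 61 for miR-9a-5p. miR-9c-5p also lay above miR-9b-5p in the first D. simulans prepupa library (41 of 73 against 11 of 22) and in D. simulans larvae (17 of 33 against 3 of 6). Pool 1 holds only D. melanogaster. Over all reads on own-species hairpins the share of such reads was 1.33% to 4.03% in pool 3, 0.843% to 4.02% in pool 4 and 0.572% to 0.929% in pool 1. For D. simulans this share leaves out the clustered arms, short reads of miR-9b-5p and miR-9c-5p included, and so is lower than with them. miR-79-3p had no read of 18 or 19 nt among 486, which allows up to 0.756% by the exact interval, and miR-306-5p had 7 of 131. Of the miR-79-3p reads 443 came from pool 1, where such reads were rare. Its 37 reads of pool 3 allow up to 9.49% and its 6 of pool 4 up to 45.9%.

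**Figure D2:**
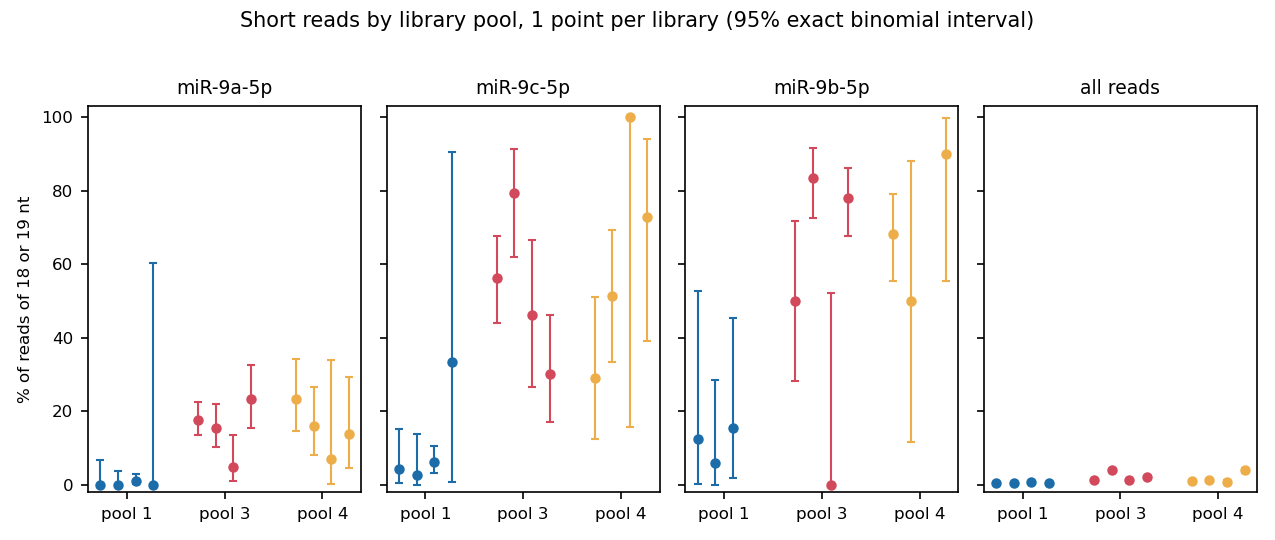
Percent of reads of 18 or 19 nt (y axis) for miR-9a-5p, miR-9c-5p, miR-9b-5p and all reads, with 1 point per library, grouped by library pool, and bars for the 95% exact binomial interval. All reads are those on own-species hairpins, which for D. simulans leave out the clustered arms. miR-9a-5p runs from 0% to 1.05% in pool 1, 4.92% to 23.3% in pool 3 and 7.14% to 23.5% in pool 4. miR-9b-5p runs from 0% to 83.6% in pool 3 and reaches 90.0% in pool 4.

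Counting only reads of 20 nt or more left miR-9b-5p at 0.0466% and 0.405% in the D. simulans technical libraries, whose intervals still did not overlap. It left 0.0506% in the D. yakuba prepupa library that had held 0.308%. In D. melanogaster male larvae it left 0.0549% and 0.188%. Short reads thus moved with the high miR-9b-5p values, and the D. simulans technical libraries and the D. melanogaster male larvae still lay apart without them.

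Untemplated bases at the 3′ end, which the alignments list apart from the counts used above, also differed between arms. For miR-9a-5p, 99 reads carried them beside 1260 templated ones, or 7.28% of the total, and 94 of the 99 additions were adenines only. For miR-306-5p there were 16 beside 131, or 10.9%, with adenines only in 15. In pool 1 only the female prepupa library had miR-306-5p tails, 3 beside 35. Every library of pool 3 had them, at 6 beside 11, 3 beside 6, 2 beside 14 and 2 beside 5. miR-9c-5p had 11 beside 523 (2.06%) and miR-9b-5p 4 beside 300 (1.32%). miR-79-3p had none beside 486 reads, of which 443 came from pool 1. In the female prepupae of pool 1, tails made up 7.17% for miR-9a-5p and 0.521% for miR-9c-5p. Tails were thus seen on the 4 main 5p arms and on no read of miR-79-3p.

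Most reads of the main 5p arms shared 1 start. miR-9a-5p began at its named base in 1250 of 1260 reads, miR-9c-5p in 519 of 523, miR-9b-5p in 299 of 300 and miR-306-5p in 130 of 131, and so they kept 1 seed. miR-9a-3p was split almost evenly, with 12 reads at the start shown above and 11 that begin 1 base later, uAAAGCUAgcuuaccgaaguu being the most frequent of these. The later form has the seed of miR-79-3p. The 2 starts of miR-9a-3p and of miR-79-3p thus give the same pair of seeds, with nearly equal reads in miR-9a-3p and 38 against 441 in miR-79-3p.

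Summed over the arms with the miR-9 seed, the 3 5p arms took 1.67% and 3.30% of reads in D. simulans prepupae and 2.25% in D. simulans larvae. They took 1.21%, 1.12% and 1.53% in D. yakuba prepupae (2 libraries) and larvae. In D. melanogaster they took 0.988% and 1.02% in male prepupae, 0.511% and 2.29% in male larvae, 1.01% in female prepupae and 0.148% in female larvae. The 3 D. melanogaster prepupal samples lay close together and the 3 larval samples far apart. miR-9a-5p gave 44.4% to 87.5% of this sum, miR-9c-5p 12.5% to 42.9% and miR-9b-5p 0% to 38.6%. The 87.5% and the 12.5% come from the second D. yakuba prepupa library, which had 16 such reads and none of miR-9b-5p.

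**Figure D3:**
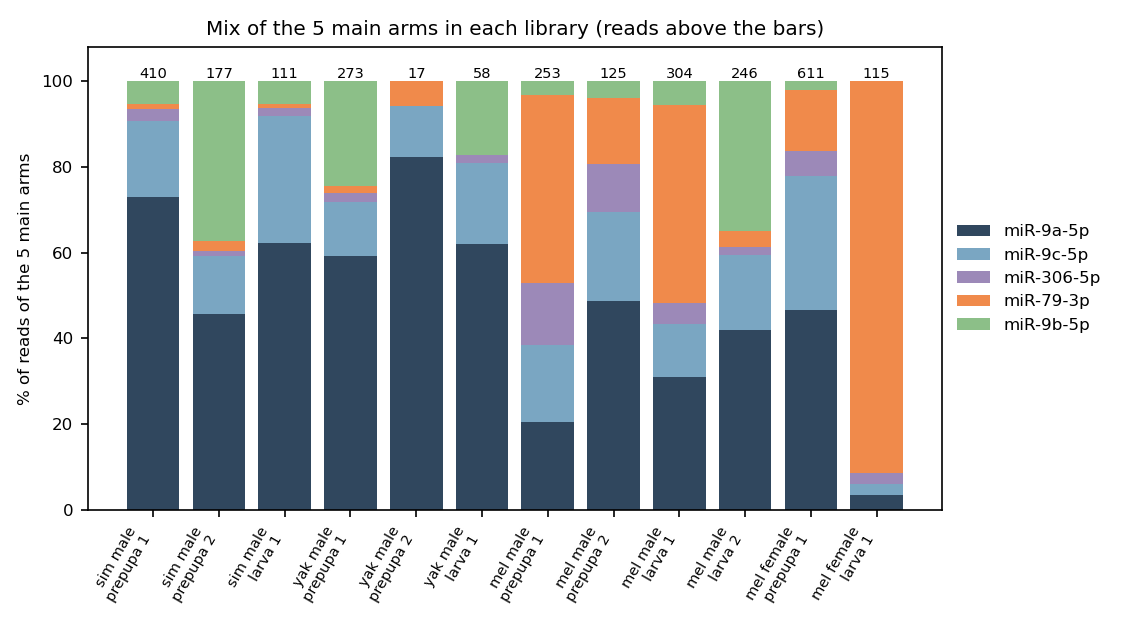
Percent of the reads of the 5 main arms that each arm made up (y axis) in each library (x axis), with the number of reads above each bar. miR-79-3p fills most of the D. melanogaster (mel) female larva bar and little or none of the D. simulans (sim) and D. yakuba (yak) bars.

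The lone mir-9a was next set against its clustered relatives as a ratio within each library, which does not depend on the library total. miR-9a-5p reads were 2.69 and 0.845 times the summed reads of the 4 clustered arms in the D. simulans prepupal libraries and 1.64 times in larvae. The ratio was 1.46 and 4.14 in D. yakuba prepupae, the second from 14 against 3 reads, and 1.62 in larvae. In D. melanogaster it was 0.261 and 0.953 in male prepupae and 0.449 and 0.721 in male larvae, 0.874 in female prepupae and 0.0404 in female larvae. All libraries of D. simulans and D. yakuba except the second of D. simulans prepupae had more miR-9a-5p than clustered reads. None of the 6 of D. melanogaster had. The split depended in part on miR-79-3p. This arm gave 19 of 64 clustered reads in the second D. melanogaster male prepupa library, beside 61 of miR-9a-5p. It gave 140 of 210 in the first male larva library, beside 94, and 87 of 326 in female prepupae, beside 285. In all of these miR-9a-5p exceeded the other clustered reads together, and in the remaining D. melanogaster libraries it did not. Pool 1 holds only D. melanogaster, and the part of the pool was not tested.

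Between stages the log2 ratio moved by −0.19 in D. melanogaster males, 0.17 in D. simulans and −0.07 in D. yakuba, prepupa minus larva, with 0.5 reads added to each sum. In D. melanogaster females it moved by 4.44, between 1 library each. The mean over the 4 groups was 1.08, which was not distinguishable from 0 (exact permutation test within groups, two-sided, 48 arrangements, p = 0.583; the smallest p this design allows is 0.0417). Without the female larva library, or without the female prepupa library, the mean over the groups left was −0.03. The female larva library held 4 reads of miR-9a-5p and 105 of miR-79-3p in a total of 4721, and it was the only one with the index CTGA.

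**Figure D4:**
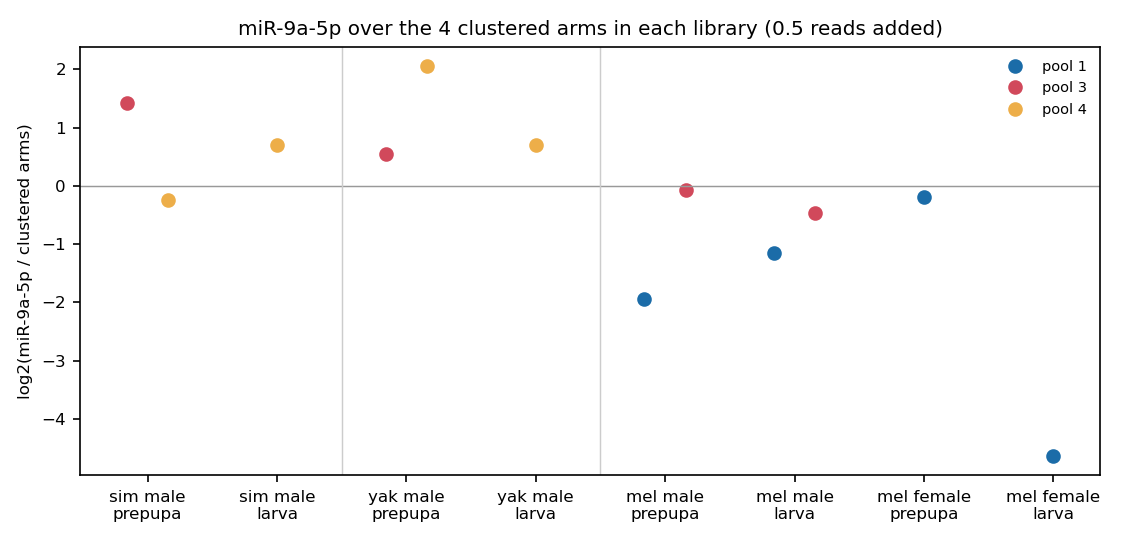
Log2 ratio of miR-9a-5p reads to the summed reads of the 4 clustered arms (y axis), with 1 point per library in its group and colours for the pool. The D. melanogaster points lie at or below −0.07 and reach −4.63 in female larvae, while the D. simulans and D. yakuba points lie between −0.24 and 2.05.

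The mix of the clustered arms, which leave a single stretch of chromosome, was tested in the same way for each arm over the other 3. The mean log2 change between stages was 1.01 for miR-306-5p (adjusted p = 0.50), 0.89 for miR-9b-5p (adjusted p = 0.833), 0.72 for miR-9c-5p (adjusted p = 0.875) and −0.73 for miR-79-3p (adjusted p = 0.875), by the exact permutation test with adjustment over the 4 arms. None passed, and since the smallest p before adjustment is 0.0417, an arm could pass only if all 4 reached it. Without a female library the mean was 0.09 for miR-9b-5p, −0.86 for miR-9c-5p and 0.85 for miR-79-3p, and for miR-79-3p it was also 0.16 without the first D. yakuba prepupa library, where that of miR-9b-5p was 0.06. For miR-306-5p the log2 difference, prepupa minus larva, was 2.19 in D. melanogaster males, 1.92 in females, 0.17 in D. simulans and −0.22 in D. yakuba. In females the miR-306-5p share of the library hardly differed, at 0.0726% in prepupae and 0.0635% (3 reads) in larvae. The female value follows the other clustered arms, since miR-79-3p gave 105 of the 111 clustered reads in the female larva library.

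The arms of the cluster did not keep fixed proportions between libraries. miR-79-3p over miR-9c-5p was −3.74 and −2.44 on the log2 scale in D. simulans prepupae and −4.48 in larvae, and −2.94, −0.74 and −4.52 in D. yakuba prepupae (2 libraries) and larvae. The −0.74 rests on 1 against 2 reads and the −4.52 on 0 against 11. In D. melanogaster it was 1.29 and −0.44 in male prepupae, 1.87 and −2.20 in male larvae, −1.13 in female prepupae and 4.91 in female larvae. The 3 libraries in which miR-79-3p exceeded miR-9c-5p were all from pool 1 of D. melanogaster.

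**Figure D5:**
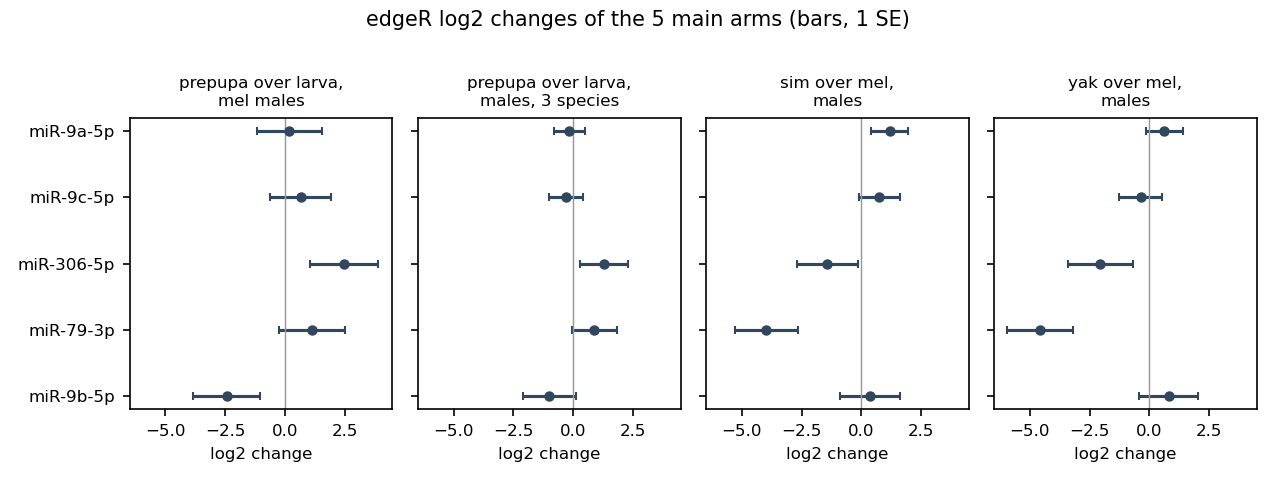
Fitted log2 changes (x axis) of the 5 main arms for prepupae over larvae in D. melanogaster males and in males of 3 species, and for D. simulans and D. yakuba over D. melanogaster, with bars of 1 SE; all but the first panel count libraries on the D. melanogaster hairpins. The 2 species panels place miR-79-3p lowest, at −3.97 and −4.59. Its bars overlap those of miR-306-5p, at −1.42 and −2.05, and no value passed the threshold.

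No log2 change between stages passed the test for the other arms. In D. melanogaster males it was 0.19 (SE 1.35) for miR-9a-5p and 0.66 (SE 1.28) for miR-9c-5p, each with an adjusted p of 0.941, and 1.15 (SE 1.38, adjusted p = 0.778) for miR-79-3p by the edgeR quasi-likelihood test. The miR-9a-5p value ran from −0.36 to 1.25 as single libraries were left out, and its sign turned without the first male larva, the second male prepupa or the female larva library. That of miR-79-3p was 3.02 without the first male larva, 2.21 without the second male prepupa, 0.50 without the second male larva, 0.76 without the female larva and 0.12 without the first male prepupa library. With the pool as a replicate block it was 1.35 (SE 0.58, edgeR adjusted p = 0.0584). The miR-9c-5p value was 1.73 without the second male larva, 0.28 without the female larva and 0.09 without the first male larva library. Over males of 3 species it was −0.10 (SE 0.52, adjusted p = 0.914) for miR-9a-5p on own-species hairpins, where 0% of 44 arms were called, 8 reached 0.05 before adjustment and DESeq2 made 2 calls. On the D. melanogaster hairpins it was −0.29 (SE 0.72) for miR-9c-5p, 0.89 (SE 0.94) for miR-79-3p and −0.99 (SE 1.10) for miR-9b-5p, none of which was called. The miR-9b-5p value was −0.12 with reads of 20 nt or more. That of miR-79-3p was 2.12 without the first D. melanogaster male larva and 0.22 without the first male prepupa library. The sign of miR-9a-5p turned without the second D. melanogaster or the D. simulans male larva library, that of miR-9c-5p without the D. simulans one, and that of miR-9b-5p without the D. melanogaster one. Over both sexes of D. melanogaster, where 1.72% of 58 arms were called, it was 1.07 (SE 1.27) for miR-9a-5p, 1.37 (SE 1.29) for miR-9c-5p, 2.02 (SE 1.41) for miR-306-5p and 0.08 (SE 1.31) for miR-79-3p, with no call, and miR-9b-5p did not pass the filter on low counts. The miR-9a-5p value was −0.27 without the female larva library, and that of miR-79-3p −1.05 without the first male prepupa library. With the pool as a replicate block 3 arms were called.

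D. simulans and D. yakuba allow a view of the stages at a constant index, since the larval library and one prepupal library of each carry the same one. At index GACT, D. simulans had 1.27% miR-9a-5p in prepupae and 1.44% in larvae, and 0.0932% miR-9b-5p in prepupae and 0.125% in larvae. At index CGAT, D. yakuba had 0.745% and 0.308% of these arms in prepupae and 0.965% and 0.268% in larvae. These pairs had overlapping intervals, though they come from different pools. miR-9c-5p was 0.309% in D. simulans prepupae and 0.687% in larvae, with intervals that did not overlap, and 0.156% in D. yakuba prepupae and 0.295% in larvae, with intervals that did. The second library of the same D. simulans prepupal RNA shares pool 4 with the larval library but not its index. It held 0.463% (0.297% to 0.688%), which overlapped the larval interval (0.473% to 0.963%). Counting only reads of 20 nt or more, miR-9c-5p was 0.136% (0.0927% to 0.191%) in D. simulans prepupae and 0.333% (0.190% to 0.540%) in larvae, and the intervals overlapped.

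No difference of the stage change between species was detected for any main arm by the joint edgeR quasi-likelihood test of stage by species. The smallest p was that of miR-9b-5p, 0.144 before adjustment and 1 after it, and 0% of 71 arms were called, with 3 at 0.05 before adjustment and 1 by DESeq2. On own-species hairpins miR-9a-5p was the only member tested, and 0% of 51 arms were called. There 2 arms reached 0.05 before adjustment and 0 were called by DESeq2. With the replicate number as a block 1 arm was called, in a fit that took technical libraries as separate samples. Between the sexes of D. melanogaster, the log2 difference, male minus female, was 1.09 (SE 1.39) for miR-9a-5p, 0.63 (SE 1.38) for miR-9c-5p, 0.73 (SE 1.54) for miR-306-5p and −1.22 (SE 1.40) for miR-79-3p by the edgeR quasi-likelihood test. None was called, in a comparison where 1.72% of 58 arms were, and with the pool as a replicate block 0 arms were called. Without the female larva library the values were −0.41 for miR-9a-5p, −0.56 for miR-9c-5p and 1.36 for miR-79-3p, of opposite sign, and miR-306-5p was at −0.05 without the female prepupa library.

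Among 48 arms present in all 3 hairpin sets with at least 100 reads, those whose level followed miR-9a-5p most closely over the 10 RNA samples were miR-276a-3p, miR-31a-5p, miR-263a-5p and miR-184-3p. Their root mean square differences from it, in log2 read share centred on each arm's mean, were 0.59, 0.86, 0.94 and 0.96, against a median of 1.92 for the 48. miR-9c-5p differed from miR-9a-5p by 0.64 and was followed most closely by miR-31a-5p (0.56), miR-263a-5p (0.61), miR-184-3p (0.72) and miR-276a-3p (0.75). The same 4 arms were thus nearest to both. The clustered miR-79-3p was farther from miR-9c-5p, its neighbour in the genome, than the median arm was, at 2.89 against 1.74. All these levels share library totals.

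Lists of other microRNAs were counted for comparison. Of 18 arms of microRNAs known from sense organs and imaginal discs, 10 were tested in D. melanogaster males between stages. On the log2 scale miR-8-3p rose by 4.05 (SE 1.13, edgeR quasi-likelihood adjusted p = 0.0107), miR-7-5p fell by 4.94 (SE 1.65, adjusted p = 0.0463), and the other 8 were not called, beside 8.57% of all 70 arms that were. Among these 8 was the other arm of mir-8, miR-8-5p, at −0.99 (SE 1.32, adjusted p = 0.815). The list had 5 positive and 5 negative values, and its median was 0.43, beside 0.12 for all 70 arms. Index and stage cannot be told apart in these males. No arm at all was called without the first male prepupa, the first male larva or the female larva library, and 1 without the second male prepupa library. miR-8 promotes body growth, and miR-7 acts in photoreceptors and on Notch target genes in the fly.

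The Brd box and K box microRNAs, which include miR-79 and act on Notch target genes in the fly, had 9 of 22 arms tested. miR-5-3p alone was called, 1 of 9 beside 8.57% of all arms, at −8.28 (SE 2.77, adjusted p = 0.0463), and the list's median was −1.08, beside 0.12 for all 70 arms. In D. simulans over D. melanogaster, miR-11-3p was called at 2.61 (SE 0.63, edgeR adjusted p = 0.0301), the single call of both lists in the other comparisons on own-species hairpins. Between stages, miR-79-3p, at 1.15, and miR-2b-3p, at 0.14 (SE 1.28), were the 2 list arms with a positive value. Of the members' seed mates outside the family, miR-275-3p was tested without a call, and the arms of mir-4 had at most 3 reads in all libraries.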

How the data were processed

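Small RNA libraries were made from whole animals. The authors' alignment was to hairpins of miRBase release 15, per the file headers, and Bowtie 0.12.5 is named in the submitters' processing notes. Their deposited summary table gives expected counts per arm, which are whole numbers in the member cells compared. The deposited alignment texts list every read sequence with its reads per library, and these whole numbers were summed per mature arm here. The 2 sources matched in all 96 member cells compared. The build behind the authors' loci is not stated there, so coordinates are those of BDGP6 (Ensembl). Libraries of other series (4 in the texts, 8 columns in the summary table) were not used.

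Sequences are those in the alignment texts: the named mature line, and for an unnamed arm its most frequent read. Technical libraries of 1 RNA were summed for the fits across species, except in those with a block, where they entered as separate samples. Arms were filtered with filterByExpr given the design, scaled by TMM and tested with edgeR 4.0.16 (quasi-likelihood F test), and p-values were adjusted by Benjamini-Hochberg over all arms tested, with a threshold of 0.05. DESeq2 1.42.0 was an alternative. The script was first tested on simulated counts. Ratios had 0.5 reads added. Shares carry Clopper-Pearson 95% intervals, over the reads on own-species hairpins plus, in D. simulans, the clustered reads. Replicate numbers 1 and 2 of D. melanogaster males coincide with pools 1 and 3 in the sample titles, and same-number deviations correlated at r = 0.714 over 51 arms, so fits with pool as a block were also made. Across species the block was the replicate number, which does not follow the pool there. Named arms were all member arms, the 4 arms nearest to miR-9a-5p and to miR-9c-5p, and at most 4 of each list. The members and lists were chosen with earlier results of these data known. Alternatives covered scaling, DESeq2, the low-count filter, reads of 1 microRNA only, the summary counts, the block and each library left out. Reads of 20 nt or more, and other settings on D. melanogaster hairpins, were added after seeing the data.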

Additional observations from a re-analysis of the deposited data

How the results depend on the processing

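Of 501 values of member arms under an alternative, 458 kept their direction and side of the threshold, 7 became calls, 0 lost a call and 36 changed sign. The miR-79-3p log2 change kept its sign throughout, at −3.25 to −4.36 for D. simulans and −3.92 to −4.96 for D. yakuba over D. melanogaster, and passed the threshold for D. yakuba with reads of 20 nt or more (adjusted p = 0.0438). Shallow libraries limit every clustered arm: 5 or fewer miR-79-3p reads were found in each D. simulans or D. yakuba library.

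Counts of called arms moved as follows. For stage in D. melanogaster males (6), RLE scaling gave 3. For stage over both sexes (1), RLE gave 2, DESeq2 6 and no filter 0. For sex (1), upper-quartile scaling and no filter gave 0. For stage in males of 3 species (0), RLE, reads of 1 microRNA only and D. melanogaster hairpins gave 1, and upper-quartile scaling, DESeq2, no filter, summary counts and reads of 20 nt or more gave 2. For D. simulans over D. melanogaster (3), DESeq2 and no filter gave 6, summary counts 5 and D. melanogaster hairpins 1. For D. yakuba over D. melanogaster (0), DESeq2 gave 4, no filter 2, and upper-quartile scaling, summary counts and reads of 20 nt or more 1. For D. simulans over D. yakuba (4), D. melanogaster hairpins gave 0. For stage by species (0), no filter, summary counts and reads of 20 nt or more gave 1. The cause was not tested.

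The pairing by pool, fitted as a replicate block in D. melanogaster, gave 24 calls among 70 arms for stage in males, 3 over both sexes and 0 for sex. Across species the block was the replicate number, which does not follow the pool there, and technical libraries entered as separate samples. That block gave 1 call for stage by species, with p-values that take those libraries as independent. With the pool as block, miR-306-5p in D. melanogaster males was called at 2.48, and the sign turned for miR-9c-5p between sexes (−0.022). With the replicate number as block, the sign turned for miR-9a-5p over 3 species (0.038). Neither block changed another member call.

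Signs also turned without the filter for miR-9a-5p in D. melanogaster males (−0.14) and for miR-79-3p over both sexes (−0.41, and −0.074 with RLE and −0.069 with DESeq2). Over 3 species miR-9a-5p was 0.14 with upper-quartile scaling, 0.025 without the filter, 0.064 with reads of 1 microRNA only and 0.012 with summary counts, and miR-9c-5p was 0.22 with upper-quartile scaling. With reads of 20 nt or more, miR-9b-5p was −0.54 for D. yakuba over D. melanogaster and 0.72 for D. simulans over D. yakuba.

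Leaving out 1 library at a time gave 0 to 7 calls for stage in D. melanogaster males, 0 to 6 over both sexes, 0 to 2 for sex, 0 to 7 over 3 species, 2 to 6 for D. simulans and 0 to 1 for D. yakuba over D. melanogaster, and 2 to 4 for D. simulans over D. yakuba. A group left with 1 sample was assumed to vary like the others. The ratio of miR-9a-5p to the cluster ran from −0.033 to 1.47, and the composition values from −0.86 to 1.62 for miR-9c-5p, −1.37 to 0.85 for miR-79-3p and 0.058 to 1.39 for miR-9b-5p. Ranges of log2 changes that crossed 0 were −0.36 to 1.25 for miR-9a-5p in D. melanogaster males. Over both sexes they were −0.27 to 2.13 for miR-9a-5p and −1.05 to 1.22 for miR-79-3p. Between sexes they were −0.41 to 3.18 for miR-9a-5p, −0.56 to 2.31 for miR-9c-5p, −0.049 to 1.37 for miR-306-5p and −2.61 to 1.36 for miR-79-3p. Over 3 species they were −0.37 to 0.12 for miR-9a-5p, −0.68 to 0.20 for miR-9c-5p and −2.20 to 0.47 for miR-9b-5p. For miR-9b-5p they were −0.60 to 1.81 for D. simulans and −0.74 to 2.33 for D. yakuba over D. melanogaster. For D. simulans over D. yakuba they were −0.015 to 0.95 for miR-9a-5p, −0.11 to 1.13 for miR-306-5p and −1.62 to 1.81 for miR-9b-5p.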
